A study of Homo sapiens with 12 samples.

Results

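The genes described here were 8 transcripts of the NF-kappaB response: the CXC chemokines CXCL8, CXCL1, CXCL2, CXCL3 and CXCL5, the CC chemokine CCL20, and the feedback inhibitors NFKBIA and TNFAIP3. They were picked by name from the 26364 genes of the RNA-seq count table after their levels over time were known, so those levels are given as a description with no test of the 8 genes. Of the 8 genes, 5 had enough reads to enter the fit (CXCL8, CXCL2, CCL20, NFKBIA and TNFAIP3), and CXCL1, CXCL3 and CXCL5 did not. RNA-seq was performed on HepG2, an established human line from a liver tumour, at 0, 5, 10, 30 and 240 min of insulin, with 2 libraries at each time. The labels give no genotype or agent other than insulin for any group. Cells were grown in EMEM with 10% FBS, kept in EMEM for 16 h and then given insulin in EMEM with BSA. The treatment field of every RNA library, the 0 min libraries included, names 3 nM insulin for 5 min, so the times were taken from the library titles. The 0 min group therefore served as the control, and no library of a 240 min culture without insulin was used here, so that insulin and time in the medium cannot be told apart at 240 min. A single insulin receptor (IR) ChIP-seq library of insulin-treated HepG2 cells, with its input, gave a second readout that was not used to pick the genes.

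NF-kappaB is a family of dimeric transcription factors held in the cytoplasm by inhibitor proteins of the IkappaB family, and cytokine or Toll-like receptor signals lead to destruction of the inhibitor and entry of the dimer into the nucleus. Among the genes it switches on are chemokines, which draw leukocytes to the liver and other tissues, and its own inhibitors, which close the loop: NFKBIA encodes IkappaB alpha, and TNFAIP3 encodes the ubiquitin-editing enzyme A20. CXCL8 (interleukin 8), CXCL1, CXCL2, CXCL3 and CXCL5 act on neutrophils through CXCR2, and CXCL8 also acts through CXCR1. CCL20 acts on lymphocytes and dendritic cells through CCR6.

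The stretch of DNA before each gene start is shown because the kappaB sites of these genes lie there, close to the start. All 8 genes had a promoter window in the RefSeq table (build GRCh38.p14, 250 bases before and 50 after the start), and each of the 8 windows matched the GRCh37 (hg19) genome exactly once. Each line below begins 140 bases before the RefSeq start and runs 5′ to 3′ on the strand of the gene, ending 45 bases before that start, or earlier where needed to stop at an annotated UTR or 30 bases past the start in the deposited files. That start lay 52 to 85 bases upstream of the RefSeq start in CXCL8, CXCL2, CXCL3, CXCL5 and TNFAIP3, so that the last 8 to 30 bases of those 5 lines lie inside the transcript of the files. The CXCL3 line also overlaps an annotated exon of CXCL3, and the CXCL5 line an exon of a noncoding gene. Capitals mark matches to the NF-kappaB consensus or to its short form GGNNNTTCC on either strand.

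CXCL8, chr4:74606146-74606235, plus strand: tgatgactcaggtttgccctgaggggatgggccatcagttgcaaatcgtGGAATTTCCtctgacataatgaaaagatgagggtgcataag
CXCL1, chr4:74734970-74735065, plus strand: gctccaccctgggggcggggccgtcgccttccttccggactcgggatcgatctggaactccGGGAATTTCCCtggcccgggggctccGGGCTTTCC
CXCL2, chr4:74964968-74965052, minus strand: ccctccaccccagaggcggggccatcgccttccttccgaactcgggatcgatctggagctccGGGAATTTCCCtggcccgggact
CXCL3, chr4:74904461-74904546, minus strand: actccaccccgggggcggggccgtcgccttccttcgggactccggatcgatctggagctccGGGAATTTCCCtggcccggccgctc
CXCL5, chr4:74864439-74864534, minus strand: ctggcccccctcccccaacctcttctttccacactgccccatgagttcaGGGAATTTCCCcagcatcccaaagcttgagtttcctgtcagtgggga
CCL20, chr2:228678418-228678513, plus strand: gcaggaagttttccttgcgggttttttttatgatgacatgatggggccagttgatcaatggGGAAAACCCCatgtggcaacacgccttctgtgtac
NFKBIA, chr14:35874000-35874095, minus strand: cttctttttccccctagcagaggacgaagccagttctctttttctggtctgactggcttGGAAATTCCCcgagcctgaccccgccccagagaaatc
TNFAIP3, chr6:138188256-138188350, plus strand: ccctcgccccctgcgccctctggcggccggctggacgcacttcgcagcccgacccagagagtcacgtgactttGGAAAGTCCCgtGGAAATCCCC

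The NF-kappaB consensus was present in 7 of the 8 promoter windows, and the short form in 8 of 8. Among all 35116 RefSeq promoter windows of the same 300 bases, 5.91% held the consensus and 20.1% the short form. As the 8 genes were picked as genes of the NF-kappaB response, nothing is read from that difference. CXCL8 was the gene without the consensus, and its short-form match began 91 bases before the start. In CXCL1, CXCL2 and CXCL3 a consensus match began 79, 78 and 79 bases before the start, and a second short-form match began 53 bases before it in each. TNFAIP3 had a pair of consensus matches, at −67 and −55, both on the strand opposite to the gene. The AP-1 motif TGANTCA, the site of the Fos and Jun factors, was found only in the CXCL8 window, at −137, and in 7.71% of all promoters. The letters TATAAA of a TATA box were found in the windows of CXCL8, CCL20 and NFKBIA, the last on the opposite strand, and in 11.5% of all promoters. Over the 250 bases before the start, CXCL1 shared 81.4% of aligned positions with CXCL3 and 71.9% with CXCL2, whereas CXCL8 shared 44.7% with CXCL1, near the 38.5% to 53.9% between genes of different families. A match of letters describes the window and does not show that a factor was bound.

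**Figure D1:**
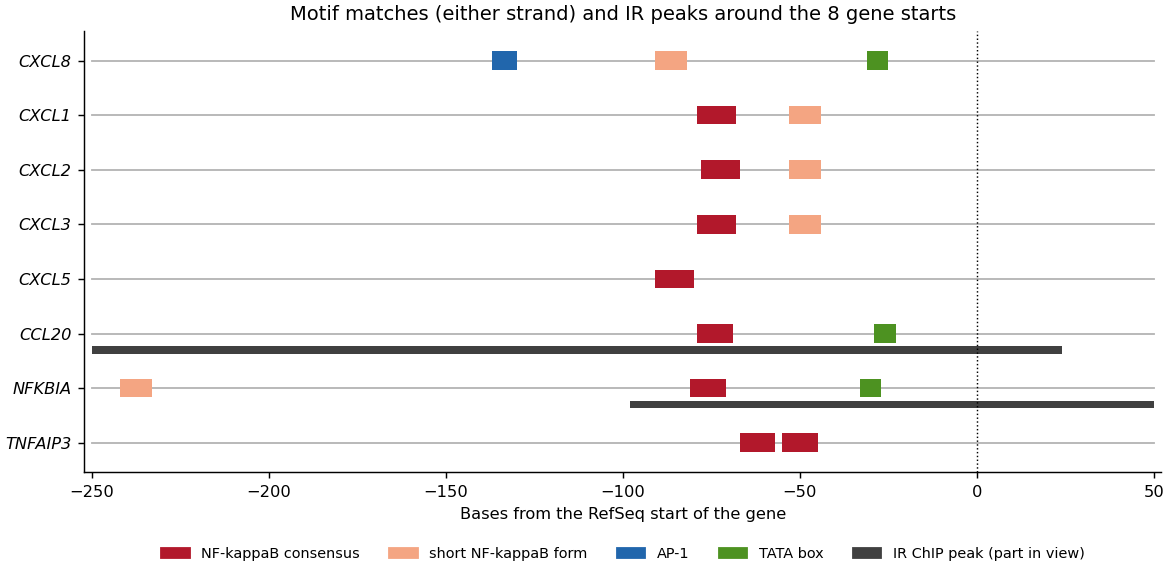
Motif matches on either strand (coloured blocks) along the 300-base RefSeq promoter window of each of the 8 genes, in bases from the RefSeq start (dotted line), with the part of each IR ChIP-seq peak that lies in the window drawn as a dark bar beneath. Consensus or short-form NF-kappaB matches lie within 91 bases of the start in all 8 genes, and a dark bar is present at CCL20 and NFKBIA.

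The 5 CXC genes lie together on chromosome 4 (hg19), in the order CXCL8, CXCL1, CXCL5, CXCL3 and CXCL2 over 359 kb, while CCL20 lies on chromosome 2, NFKBIA on chromosome 14 and TNFAIP3 on chromosome 6. IR peaks were found at 2 of the 8 genes within 5 kb of the gene body, CCL20 and NFKBIA, and 9.64% of all 26364 genes had such a peak. At CCL20, a peak of 456 bases with a MACS2 score of 107 covered the gene start (chr2:228678127-228678582), from position −431 to position 24 relative to it. A second peak at CCL20, with a score of 113, lay 1258 bases past the end of the gene (chr2:228683538-228683977). At NFKBIA, a peak of 288 bases with a score of 36 covered the start (chr14:35873766-35874053), and a peak with a score of 69 lay within the gene (chr14:35873040-35873465). The median score of all 1971 peaks was 79, so both CCL20 peaks were above it and both NFKBIA peaks below it. No peak was listed within 20 kb of the other 6 genes. The nearest peak was 906 kb from the start of TNFAIP3 and 3390 kb from the start of CXCL8. The ChIP-seq was 1 library, so these peaks have no replicate.

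The central 300 bases of the CCL20 promoter peak and the bases of the NFKBIA start peak that lie before the gene are shown next, because they are the DNA under the IR peaks at these gene starts, and capitals again mark the NF-kappaB matches.

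CCL20 promoter peak, chr2:228678205-228678504, plus strand: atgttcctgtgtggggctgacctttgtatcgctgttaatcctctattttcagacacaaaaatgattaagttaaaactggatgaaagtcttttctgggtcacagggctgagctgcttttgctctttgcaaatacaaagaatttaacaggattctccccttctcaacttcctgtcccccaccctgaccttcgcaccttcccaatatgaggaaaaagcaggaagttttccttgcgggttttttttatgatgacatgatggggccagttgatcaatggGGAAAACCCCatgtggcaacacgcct
NFKBIA start peak, chr14:35873961-35874053, minus strand: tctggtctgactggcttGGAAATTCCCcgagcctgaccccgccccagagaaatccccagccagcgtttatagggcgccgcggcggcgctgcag

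The consensus match of each promoter thus lay inside the IR peak at both genes. Of the 1971 IR peaks, 7.36% held the consensus within the 300 bases at their centre, beside the 5.91% of promoters given above. The CCL20 peak past the end of the gene held none of the 4 motifs.

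Across the 10 RNA-seq libraries, gene counts totalled 18347109 to 45005769 per library, and 13852 genes were fitted. Spiked-in ERCC RNA took 1.59% to 1.91% of counts in 9 libraries and 2.36% in 10 min replicate 2. All 8 hepatocyte markers examined, such as ALB and AFP, were expressed, with a summed level of 63300 to 78600 CPM (gene counts scaled to a common library size) that overlapped between 0 min and 240 min. Of 10 leukocyte markers, PTPRC, S100A8 and MS4A1 had 0 counts in every library, and the summed level of the list, most of it LYZ, was 5880 to 6430 CPM at 0 min and 4800 to 4940 CPM at 240 min. Summed stellate cell and fibroblast markers were at 66.3 to 72 CPM at 0 min and 53.7 to 56.9 CPM at 240 min, and summed endothelial markers at 3.62 to 3.75 CPM and 4.2 to 4.21 CPM. The part of these differences in the results below was not tested.

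CXCL8 was lowest at 10 min and highest at 240 min. CXCL8 stood at 10.1 and 13 CPM at 0 min, 13.9 and 12.0 CPM at 5 min, and 7.03 and 7.49 CPM at 10 min. It was at 12.1 and 14 CPM at 30 min and at 32.2 and 43.7 CPM at 240 min. Both 10 min libraries lay below every other library and both 240 min libraries above every other library, while the libraries of 0, 5 and 30 min overlapped. Against 0 min, the fitted log2 fold change of CXCL8 was −0.70 ± 0.16 (SE, 2 libraries per time) at 10 min and 1.67 ± 0.13 at 240 min, a 3.19-fold higher level. Most of that difference arose after 30 min, as the change from 30 to 240 min was 1.54 ± 0.13. The change at 10 min did not pass the threshold (adjusted p under 0.05 over all genes in edgeR's quasi-likelihood test), whereas it passed with DESeq2. In bulk RNA, fewer cells expressing a gene and less of its RNA per cell cannot be told apart.

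The other CXC ligands were close to the limit of detection. CXCL2 had 7 and 13 counts at 0 min, and its libraries of 5 min (8 and 12 counts), 10 min (5 and 10) and 30 min (10 and 12) were alike, against 23 and 16 counts at 240 min. On the CPM scale, both 240 min libraries of CXCL2 (0.919 and 0.841 CPM) lay above the other 8 libraries (0.191 to 0.583 CPM). Its log2 fold change at 240 min was 1.53 ± 0.40. Without 0 min replicate 2, the deepest library, the CXCL2 change was 1.43 and was no longer past the threshold.

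CXCL1 had 0 to 9 counts per library, 43 in all, with 2 and 8 counts before insulin and 6 and 9 counts at 240 min. CXCL3 had 28 counts in all, and its 2 libraries at 240 min held 11 and 0 counts, so that a single library carried the 240 min level. CXCL5 had 46 counts in all, with 3 and 9 before insulin and 6 in each 240 min library. No order of times could be read for these 3 genes, since each had a library with 0 counts, which allows a level of up to 0.119 CPM (CXCL1, 5 min replicate 1), 0.158 CPM (CXCL3, 240 min replicate 2) and 0.144 CPM (CXCL5, 5 min replicate 2) by counting error alone. Reads may also be divided between near copies, as 13.4% of the 50-base windows of CXCL2 transcripts, 6.01% of those of CXCL3 and 4.57% of those of CXCL1 occurred in another of these 3 genes, while CXCL8, CXCL5 and CCL20 shared none with 50 chemokine and related genes searched. StringTie gave CXCL5 0.546 TPM (its length-corrected unit) in the library where its count was 0.

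CCL20 passed through a minimum at 10 min that it shared with CXCL8. CCL20 was at 41.7 CPM in both 0 min libraries, 39.8 and 46.5 CPM at 5 min, and 28.5 and 29.5 CPM at 10 min. It was at 34.6 and 36.5 CPM at 30 min and at 50.1 and 42.2 CPM at 240 min. The 10 min libraries did not overlap with those of any other time, and those of 30 min lay between them and the 0 min libraries. The fitted log2 fold change was −0.52 ± 0.08 at 10 min, a level of 0.696 times that at 0 min, and −0.23 ± 0.08 at 30 min. Between 30 and 240 min CCL20 was higher by 0.39 ± 0.08, and the net difference between 240 and 0 min was 0.15 ± 0.08. The 10 min difference of CCL20 was past the threshold with all 10 libraries and was −0.55 without 10 min replicate 2, the library with the largest ERCC share. The call was lost without that library, without 10 min replicate 1 (−0.49) or without 0 min replicate 2, although the direction held.

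**Figure D2:**
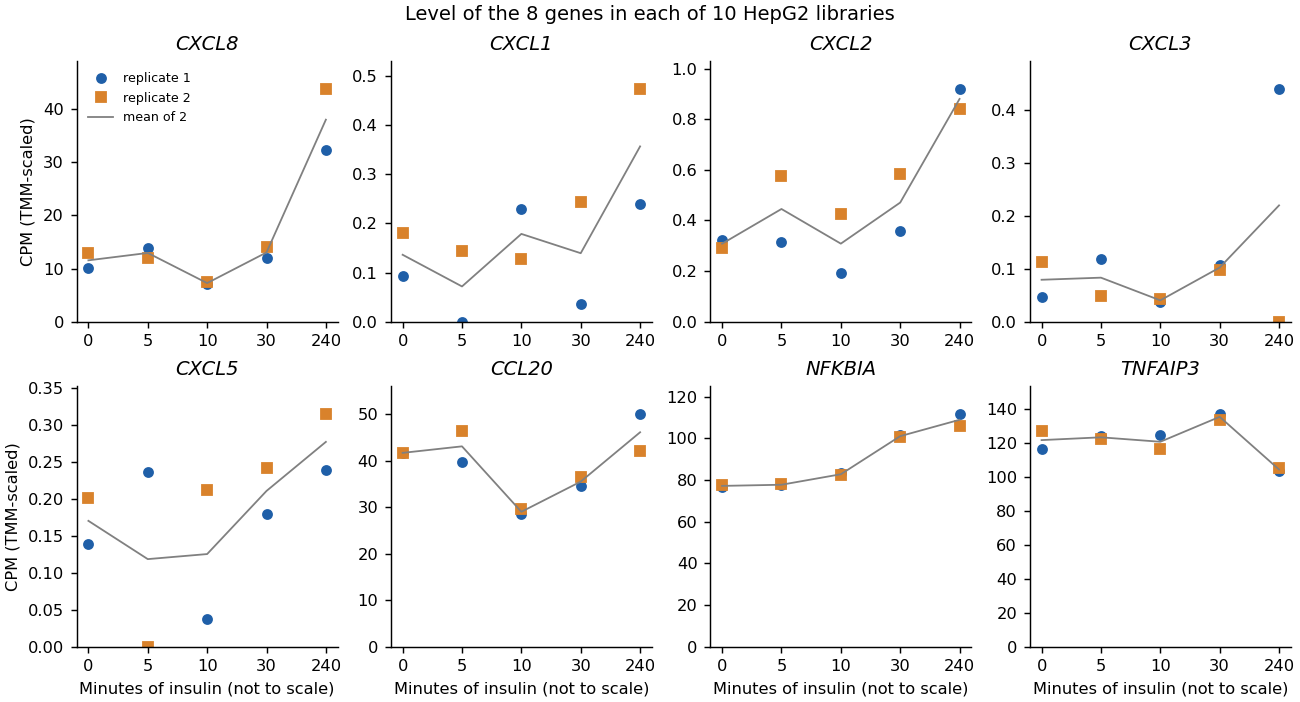
Level of each of the 8 genes in CPM (y axis from 0, separate scale per gene) at 0, 5, 10, 30 and 240 min of insulin, with 1 point per library (circle, replicate 1; square, replicate 2) and a line through the mean of 2. CXCL8 and CCL20 have their lowest points at 10 min, NFKBIA climbs from 76.8 to 111.7 CPM, TNFAIP3 peaks at 30 min, and CXCL1, CXCL3 and CXCL5 stay under 0.5 CPM.

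The feedback inhibitor NFKBIA took a different course, with levels that were higher at each later time. NFKBIA stood at 76.8 and 77.6 CPM at 0 min, 77.6 and 77.9 CPM at 5 min, and 83.3 and 82.3 CPM at 10 min. It reached 101.6 and 100.5 CPM at 30 min and 111.7 and 106.1 CPM at 240 min. The 2 libraries of each time did not overlap with those of the next, although the higher 0 min and the lower 5 min library both round to 77.6 CPM. The log2 fold change was 0.39 ± 0.05 at 30 min (1.31-fold) and 0.50 ± 0.05 at 240 min (1.41-fold). In contrast to CXCL8, most of the NFKBIA difference was in place by 30 min, and the step from 30 to 240 min was 0.11 ± 0.05. At 10 min the difference of NFKBIA was 0.10 ± 0.05 but became −0.22 with scaling to the ERCC spike-ins, a scaling that moved the median of all genes to −0.326 at that time.

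TNFAIP3 was the fitted gene with a lower level at 240 min. TNFAIP3 was at 116.6 and 127.0 CPM at 0 min, 124.3 and 122.5 CPM at 5 min, and 124.8 and 116.8 CPM at 10 min. It was at 137.2 and 133.8 CPM at 30 min and at 103.8 and 105.1 CPM at 240 min. Both 30 min libraries lay above all others and both 240 min libraries below all others, with 0, 5 and 10 min overlapping. The log2 fold change against 0 min was 0.15 ± 0.05 at 30 min and −0.23 ± 0.05 at 240 min, and the change from 30 to 240 min was −0.38 ± 0.05, a level of 0.77 times that at 30 min. Thus NFKBIA and TNFAIP3, both inhibitors of the same pathway, were respectively higher and lower at 240 min than at 0 min.

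Read against all genes, the calls were as follows. At 5 min none of the 5 fitted genes was past the threshold, and 0% of all 13852 genes were. At 10 min 1 gene was called (CCL20, lower) beside 0.137% of all genes, and at 30 min 1 gene was called (NFKBIA, higher) beside 0.332%. At 240 min 4 genes were called beside 41.0% of all genes, with CXCL8, CXCL2 and NFKBIA higher and TNFAIP3 lower. Between 30 and 10 min none was called beside 0.00722%, and between 240 and 30 min 3 were called beside 38.2%, with CCL20 and CXCL8 higher and TNFAIP3 lower. At 240 min both libraries lay above both 0 min libraries in 4 of the 5 genes, as in 34.8% of all genes, and below them in 1, as in 34.9%. As the genes were chosen on these contrasts, nothing is read from these counts. The 4 comparisons with 0 min share the same 2 control libraries.

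**Figure D3:**
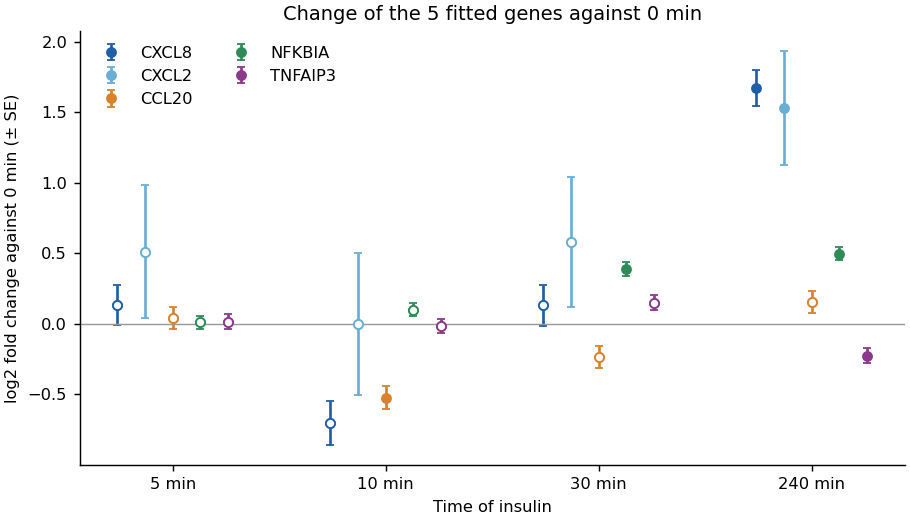
Fitted log2 fold change against 0 min (point) with its standard error (bar) for the 5 fitted genes at 5, 10, 30 and 240 min, with filled points past an adjusted p of 0.05 over all genes in edgeR. CXCL8 moves from −0.70 at 10 min to 1.67 at 240 min, whereas NFKBIA is filled at 30 and 240 min and TNFAIP3 lies below 0 at 240 min (the NFKBIA point at 10 min is below 0 with ERCC scaling).

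Levels were compared between genes only in TPM, which corrects for transcript length. Averaged over the 10 libraries, NFKBIA stood at 142 TPM and CCL20 at 116 TPM, above TNFAIP3 at 64.1 TPM and CXCL8 at 24.3 TPM. CXCL2 averaged 1.04 TPM, CXCL5 0.685 TPM, CXCL1 0.387 TPM and CXCL3 0.165 TPM. No order is read among CXCL5, CXCL1 and CXCL3, which had 46, 43 and 28 counts in all. StringTie gave CXCL5 at least 0.535 TPM in every library, also where its count was 0. The order of NFKBIA and CCL20 was not separated at each time, since at 0 min they were at 119 to 122 TPM and 121 to 123 TPM, respectively. At 240 min the ranges were 173 to 179 TPM for NFKBIA and 128 to 149 TPM for CCL20. CXCL8 at 240 min, at 47.3 and 65.7 TPM, overlapped with TNFAIP3 at 55.2 and 57.2 TPM, whereas at 10 min CXCL8 was at 10.3 and 10.7 TPM against 66.0 and 60.5 TPM. CXCL8 and CCL20 were thus the chemokines of this group present at more than a trace in HepG2.

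Of the receptors for these ligands, CXCR1 had 0 counts in all 10 libraries and CXCR2 had 2 counts in all, while CCR6, the receptor for CCL20, was at 18.3 CPM or more in every library. CCR6 did not pass the threshold at 240 min (log2 fold change −0.12 ± 0.08, adjusted p = 0.257 in edgeR). CXCR3 and CXCR4 were the other 2 of 7 chemokine receptors fitted, and none of the 3 was called in any of the 4 comparisons with 0 min.

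The rest of the pathway and the CXC locus were followed with 7 gene lists holding 101 genes besides the 8, of which 74 were fitted. Among these lists, that of the 17 neighbours of the CXC genes on chromosome 4 (8 fitted) was set by position and not by pathway. One list gene was called at 10 min, as was one at 30 min. BIRC3, a kappaB target that encodes the ubiquitin ligase cIAP2, fell at 10 min by 0.48 on the log2 scale (SE 0.09, adjusted p = 0.0208, edgeR). BIRC3 was at 27.9 and 33.2 CPM at 0 min, 21.6 and 22.7 CPM at 10 min, and 35.3 and 37.7 CPM at 240 min, so that, as in CXCL8 and CCL20, both 10 min libraries lay below and both 240 min libraries above those of 0 min. It rose by 0.24 ± 0.08 at 240 min (adjusted p = 0.0316). ICAM1, an adhesion molecule for leukocytes and a further kappaB target, fell by 0.24 at 30 min (SE 0.05, adjusted p = 0.0345) and by 0.32 at 240 min (SE 0.05, adjusted p = 3.19e-05). A crossing of this kind, with both libraries of 5, 10 or 30 min on one side of 0 min and both of 240 min on the other, was seen in 3 of the 5 fitted genes (CXCL8, CCL20 and TNFAIP3), in 21 of the 74 fitted list genes and in 22.8% of all genes tested. The direction of ICAM1 at 240 min was opposite to that of CXCL8 and the same as that of TNFAIP3. The BIRC3 call at 10 min was lost without either 10 min library or without 0 min replicate 2, and the ICAM1 call at 30 min without either library of 0, 10 or 30 min.

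At 240 min, 37 of the 74 fitted list genes were called, 19 higher and 18 lower, a share of 50.0% beside 41.0% of all genes. These counts include the chromosome 4 neighbours, of which 4 of 8 were called. Among the 5 NF-kappaB subunits, REL rose (0.33 ± 0.08, adjusted p = 0.00172) whereas NFKB2 (−0.37 ± 0.07) and NFKB1 (−0.16 ± 0.05, adjusted p = 0.0211) fell, and RELA, the main activating subunit, was −0.12 ± 0.06 with an adjusted p of 0.0953. The median of the subunit list was −0.12, beside −0.003 for all genes. None of the subunits was called at 10 or 30 min.

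Of the 13 other inhibitors and feedback genes fitted, 6 rose and 3 fell at 240 min, with a median of 0.20. ZC3H12C rose most (0.87 ± 0.08, adjusted p = 3.92e-08), from 20.4 and 21.7 CPM to 37.9 and 39.7 CPM. ZC3H12A, which encodes regnase-1, an enzyme that degrades cytokine mRNAs, rose by 0.45 ± 0.11, and NKIRAS1, BCL3 and NFKBIE, the gene for IkappaB epsilon, by 0.57, 0.53 and 0.27. NFKBIE thus moved with NFKBIA at 240 min, while NFKBIB, the gene for IkappaB beta, was 0.20 ± 0.12 and not called. TNIP1 (−0.19), TNIP2 (−0.29), which encode partners of A20, and NFKBIZ (−0.21) fell, in the direction of TNFAIP3. CYLD, a deubiquitinase, was called only between 30 and 240 min (−0.18).

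Upstream of the factor, 6 of 17 kinases and adaptors rose and 2 fell at 240 min. MAP3K14, the NF-kappaB-inducing kinase of the noncanonical arm, rose by 0.66 ± 0.12 (adjusted p = 0.000198), and TRAF6, MYD88, CHUK and RIPK1 by 0.32, 0.28, 0.25 and 0.15. IKBKB, a catalytic subunit of the kinase that marks IkappaB for destruction, fell by 0.29 (SE 0.07, adjusted p = 0.00156), and TAB2 by 0.16. TRAF5 was called between 30 and 240 min only (0.82). Of the 9 cytokine and Toll-like receptors fitted, none rose and 4 fell at 240 min, IL1RAP by 0.49, IL1R1 by 0.35, IL17RC by 0.27 and TNFRSF1A, the main TNF receptor, by 0.25. The median of the receptor list was −0.25. TLR2, at 0.341 to 1.10 CPM, was called between 30 and 240 min (0.997 ± 0.356) and not between 0 and 240 min.

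The other kappaB targets were divided: of 19 fitted at 240 min, 3 rose (NOD2 by 1.01, LIF by 0.53 and BIRC3) and 6 fell, among them LCN2 by 0.55, BIRC2 by 0.45 and SOD2, a mitochondrial antioxidant enzyme, by 0.14. The list median was −0.07. NOD2 rested on 5 to 21 counts per library. Between 30 and 240 min CSF1 rose (0.33) and IL18 fell by 0.67. CCL2, CXCL6 and PTGS2 (cyclooxygenase-2) had 0 counts in all 10 libraries, IL6 had 1 and IL1B 2, whereas TNF had 69 counts in all and IL32 averaged 215 CPM.

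On chromosome 4, 8 of the 17 neighbours of the CXC genes were fitted, and EREG (0.81 ± 0.24), RASSF6 (0.75 ± 0.14) and COX18 (0.45 ± 0.08) rose at 240 min whereas ANKRD17 fell by 0.19. AREG was not fitted, with 59 counts in all, yet StringTie gave it a mean of 63.4 TPM, so the measures disagree on its level. The median of the neighbours was 0.42, beside 1.67 for CXCL8, and none of them was called at 10 min. With ERCC scaling, which moved the median of all genes to −0.119 at 240 min, 3 list genes stayed past the threshold there, ZC3H12C, BIRC2 and IL1RAP.

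**Figure D4:**
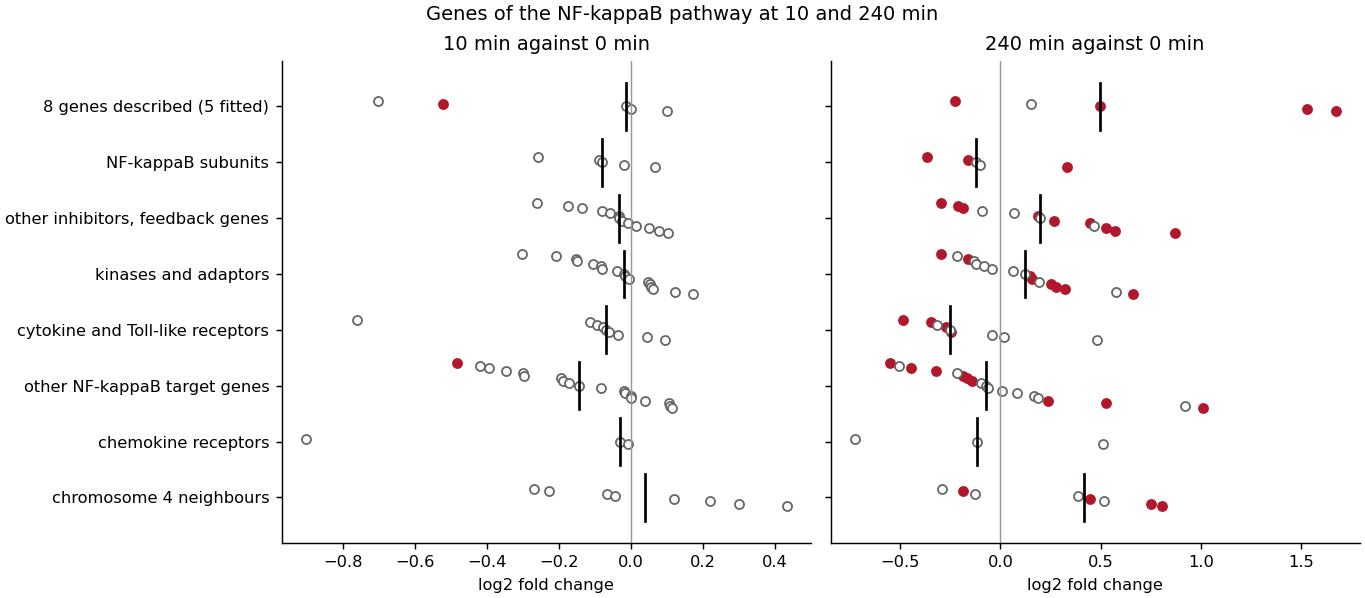
Fitted log2 fold changes at 10 min (left) and 240 min (right) against 0 min, with 1 point per fitted gene. Rows hold the described genes and each of 7 gene lists, including the chromosome 4 neighbours, and a vertical tick marks each row's median. Filled points, past an adjusted p of 0.05 over all genes, number 1 of 74 list genes at 10 min (BIRC3) and 37 at 240 min, where the receptor row lies mostly left of 0 and the row of other inhibitors mostly right of it (ERCC scaling moves the median of all genes to −0.119 at 240 min).

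Genes with a course most like that of 3 members were looked for by the root mean square difference of centred log2 CPM over the 10 libraries, among the 12333 genes whose mean level reached 1 CPM. The 8 genes were left out of the search. The genes nearest to CXCL8 were KIRREL2, PPARGC1B and SARM1, at differences of 0.32 to 0.35, compared with a median of 0.788 over all genes. A gene with no change at all would lie at 0.78 from CXCL8. The nearest of 12333 genes lie below the median by selection, so nothing is read from that difference. KIRREL2, for example, went from a mean of 1.01 CPM at 0 min to 0.578 CPM at 10 min and 2.63 CPM at 240 min. SLC6A14, ZNF250 and SLAIN1 were nearest to CCL20, at 0.09 to 0.11 with a median of 0.276 over all genes. SLC6A14 was at means of 9.61, 7.13 and 11.5 CPM at 0, 10 and 240 min, with the same minimum at 10 min. For NFKBIA, ZFP36L2, FOXQ1 and CIRBP were nearest, at 0.04 to 0.07 with a median of 0.234. ZFP36L2, which encodes a protein that destabilises AU-rich mRNAs, climbed from a mean of 145 CPM at 0 min through 188 CPM at 30 min to 208 CPM at 240 min. No kappaB list gene was among these 9 genes, and the likeness is a description of 10 libraries.

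Finally, the changes of the 5 fitted genes were traced through each way of processing. At 240 min the log2 fold change of CXCL8 ranged from 1.44 to 1.90 when a single library was left out and from 1.58 to 1.75 over the other tools and scalings. Over those tools and scalings NFKBIA at 240 min ranged from 0.38 with ERCC scaling to 0.54, and TNFAIP3 from −0.34 with ERCC scaling to −0.18. The calls of NFKBIA at 30 and 240 min and of TNFAIP3 at 240 min were lost with ERCC scaling. Those of NFKBIA at 30 min and of TNFAIP3 at 240 min were also lost with limma on TPM. That of TNFAIP3 was lost without 0 min replicate 2 too (−0.16). CXCL2 ranged from 0.86 on the log2(TPM + 1) scale to 1.62, and its call was lost with DESeq2. At 10 min CXCL8 was between −1.01 (ERCC scaling) and −0.60, with −0.48 when 0 min replicate 2 was left out, and CCL20 was between −0.85 (ERCC scaling) and −0.52. CCL20 was 0.04 at 240 min with ERCC scaling and 0.01 without 240 min replicate 1.

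**Figure D5:**
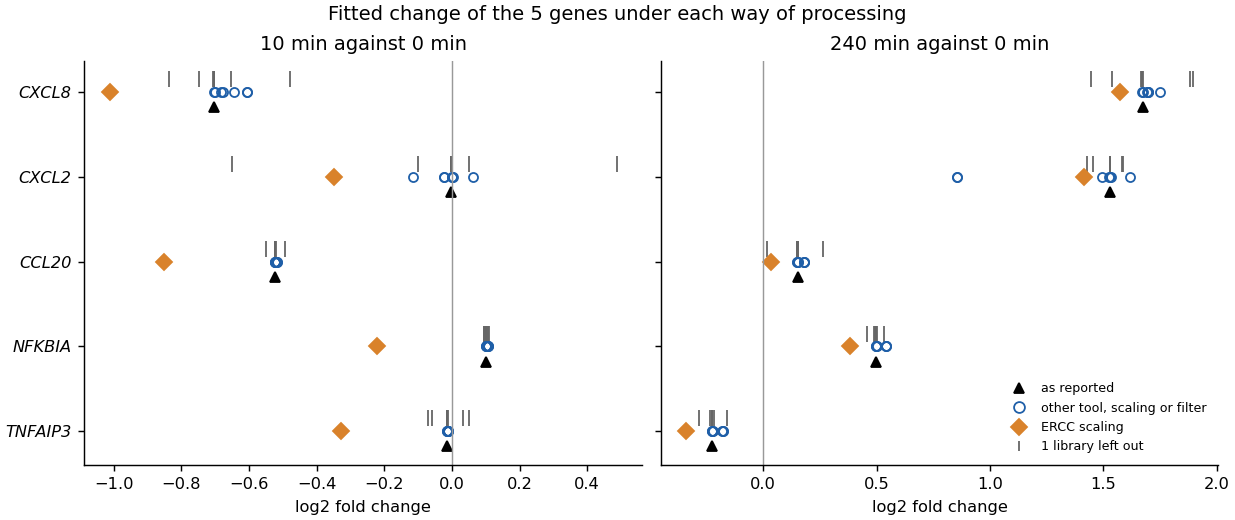
Fitted log2 fold change of the 5 genes at 10 min (left) and 240 min (right) against 0 min as reported (triangle), with another tool, scaling or filter (open circles), with ERCC scaling (diamond) and with a single library left out (bars). The diamonds lie to the left of the triangles for every gene, by most at 10 min, where NFKBIA changes from 0.10 to −0.22, and CXCL8 and CCL20 stay below 0 at 10 min under every setting.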

How the data were processed

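RNA-seq of HepG2 at 5 times of insulin (2 libraries each) and 1 IR ChIP-seq library were used. The deposited gene counts were made by the authors by trimming with Trim Galore 0.6.4, alignment to hg19 with STAR 2.6.1d and counting with featureCounts 1.6.4, with the strand option of the pipeline set to reverse, per the methods of the paper. The deposited TPM values came from StringTie. The deposited peak score is the MACS2 2.2.7.1 score of peaks called on 1 library after BWA 0.7.17-r1188 alignment and annotated with HOMER. The extract text in the labels of the RNA and ChIP libraries appears exchanged, as the paper describes stranded RNA libraries with 50-base reads.

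The counts were fitted with edgeR 4.0.16 (R 4.3.3; TMM scaling over genes, filterByExpr by time, 1 quasi-likelihood model of all 10 libraries with time as the only term), leaving out 92 ERCC rows, and p-values were adjusted over 13852 genes by Benjamini-Hochberg. CPM values are TMM-scaled. Fold changes of low genes depend on the prior count of edgeR. A peak belonged to a gene if it lay within 5 kb of the gene body in the StringTie coordinates. The labels do not say whether replicates were separate cultures. The paper calls the RNA-seq samples biologically independent and describes a single experiment, so p-values measure the spread between libraries of that experiment. Limits given for 0 counts are 3 counts and cover counting error only. Alternatives were DESeq2 1.42.0, RLE and ERCC scaling, no filter, limma 3.58.1 on log2(TPM + 1) or log2(TPM + 0.1), a minimum mean of 1 TPM, a replicate block and each library left out. The fit was checked on simulated counts in which 200 of the 13852 genes were changed, at 240 min only. In the data 41.0% of genes were called at 240 min, so the check does not cover a change of that extent. Motifs, peaks and windows were handled in Python 3.11.15.

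The 8 genes, the 7 gene lists and the marker lists were chosen with earlier results of these data known. Genes named from the lists were those called at 240 min with an absolute log2 fold change of at least 0.5, those called in any other comparison, and ICAM1, BIRC3, SOD2, RELA, NFKB1, NFKBIB, NFKBIE, IKBKB, TNFRSF1A, IL1R1, CXCR1, CXCR2 and CCR6 whatever their values, with others named as examples after their values were seen. Of the further marker lists, 3 of 6 stellate cell and fibroblast markers and 2 of 5 endothelial markers were fitted. Protein sequences were not compared here.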

Additional observations from a re-analysis of the deposited data

Results flagged for a closer look

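In 3 of the 5 fitted genes, against 22.8% of all genes tested, both libraries of an early time lay on one side of the 0 min libraries and both 240 min libraries on the other. The 8 genes were chosen on these levels, so nothing is read from that count. CXCL8 was −0.70 at 10 min and 1.67 at 240 min on the log2 scale against 0 min. CCL20 was −0.52 at 10 min and 0.15 at 240 min. For both, the difference between 240 and 10 min was not tested. TNFAIP3 was 0.15 at 30 min and −0.23 at 240 min, and its fitted change between 30 and 240 min was −0.38.

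The same crossing was seen in 19 of the 40 fitted list genes that are named here, and in 21 of all 74 fitted list genes (28.4%). The list genes include the chromosome 4 neighbours. Most of the 40 were named for their values, so the share among them is not read against the 22.8%. At 10 min and 240 min, respectively, BIRC3 was −0.48 and 0.24, NOD2 −0.42 and 1.01, TLR2 −0.76 and 0.48, LIF −0.17 and 0.53, CSF1 −0.19 and 0.19, RIPK1 −0.15 and 0.15, and TRAF6 −0.08 and 0.32. At 5 min and 240 min, BCL3 was −0.16 and 0.53, BIRC2 0.11 and −0.45, TAB2 0.14 and −0.16, and ANKRD17 0.11 and −0.19. In these 11 genes the difference between those times was not tested. At 30 min and 240 min, ZC3H12A was −0.22 and 0.45, NFKBIE −0.29 and 0.27, MYD88 −0.08 and 0.28, OTULIN −0.05 and 0.19, IKBKB 0.02 and −0.29, NFKBIZ 0.10 and −0.21, RELA 0.05 and −0.12, and CCR6 0.09 and −0.12. The direct comparison of 240 with 30 min passed the threshold in edgeR for these last genes except CCR6 (adjusted p = 0.0532). It was passed by 38.2% of all genes. These last genes were listed because their 30 and 240 min libraries lay on opposite sides of 0 min. A difference between those times was thus built in, and nothing is read from the calls.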

How the results depend on the processing

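Of 540 recomputed fold changes of the 5 fitted genes, none of a change past the threshold turned its sign, 14 of changes short of it did, and 64 moved by more than the spread between replicates.

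With DESeq2, 2 of the 5 fitted members were called at 10 min, beside 0.265% of all genes. Between 30 and 10 min 2 were called with DESeq2, where 4 of all genes (0.0289%) were called. With ERCC scaling, 2, 0 and 2 members were called at 10, 30 and 240 min, beside 0.144%, 0.0289% and 7.65% of all genes. Between 30 and 10 min 1 was called beside 0.0361%, and between 240 and 30 min 1 beside 6.62%, with the same scaling. The list genes called with it were 0 and 3 at 30 and 240 min and 6 between 240 and 30 min, and all genes called were 2, 4 and 1059 at 5, 30 and 240 min, 5 between 30 and 10 min and 917 between 240 and 30 min. ERCC scaling moved the median of all genes to −0.134 at 30 min and 0.195 between 30 and 10 min, and of the genes called at 240 min 31.3% were higher. With no filter on low counts, members called were 2 at 10 min and 2 between 30 and 10 min, list genes 3 at each of 10 and 30 min, and all genes 144, 74 and 160 at 5, 10 and 30 min and 41 between 30 and 10 min. With limma on TPM (either pseudocount, or a minimum mean TPM), no member (0) and no list gene (0) was called at 10 or 30 min. List genes called at 240 min were then 23, 21 and 20 with log2(TPM + 1), log2(TPM + 0.1) and the minimum. All genes called were in the same order 1, 1 and 1 (5 min), 0, 3 and 0 (10 min), 1, 2 and 2 (30 min), and, for log2(TPM + 0.1) and the minimum, 3 and 2 between 30 and 10 min, and 61.9% of those called at 240 min with log2(TPM + 1) were higher. With a replicate block, members called between 30 and 10 min were 2, and all genes called were 1 at 5 min and 3 between 30 and 10 min. The replicate numbers were not taken as pairs, since only 2 of 10 pairs of times had replicate differences correlated above 0.1. With peaks above the median score, 1 of the 8 genes had an IR peak, beside 5.34% of all 26364 genes.

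With a single library left out, a lone library was assumed to vary like the others and the filter was rerun. The genes fitted then numbered 14080 to 14174. At 10 min the log2 fold change against 0 min ranged from −0.84 to −0.48 for CXCL8 and from −0.55 to −0.49 for CCL20. At 240 min CXCL2 ranged from 1.429 to 1.585, NFKBIA from 0.46 to 0.53, TNFAIP3 from −0.28 to −0.16 and CCL20 from 0.01 to 0.26. Without 240 min replicate 2, CXCL3 entered the fit with a lone 240 min library of 11 counts. The library left out was the one with 0 counts, so nothing is read from CXCL3 there. List genes called numbered 0 to 1 (10 min), 0 to 1 (30 min) and 23 to 39 (240 min). All genes called numbered 0 to 22 (5 min), 9 to 24 (10 min), 18 to 53 (30 min) and 1 to 3 (30 against 10 min).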
